A study of Mus musculus with 2 samples.

Results

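The cytokine G-CSF, which the gene Csf3 encodes, and its receptor, encoded by Csf3r, were followed across the cells of mouse brain tumours with mutant IDH1. They are 2 of the 31053 genes in the count matrices and were taken as a ligand and receptor pair, not for a measured value. The study made 2 single-cell libraries by droplet sequencing (10x Genomics), called replicates 1 and 2. Both come from C57BL/6 mice with a genetically engineered glioma at the symptomatic stage, and both form 1 group, so no library without mutant IDH1 was analysed here. The labels do not say whether the libraries come from separate animals, so the spread between them may be technical. The series title names G-CSF released by mutant IDH1 glioma stem cells and its action on myeloid cells. The ligand's level in tumour cells and the receptor's level in myeloid cells are the measurements that bear on that question.

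G-CSF is a secreted cytokine that drives the production, survival and release of neutrophils. It binds a homodimer of its receptor, a single-pass protein of the cytokine receptor family, which signals through JAK kinases to STAT3 and STAT5 and is restrained by SOCS3. Most cells make little Csf3 RNA at rest. Inflammatory signals that act through NF-kB and C/EBP factors induce it, and AU-rich elements in its 3′ untranslated region make the RNA unstable.

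Csf3 (ENSMUSG00000038067) lies on the plus strand of GRCm38 at chr11:98701263-98703629. Csf3r (ENSMUSG00000028859) lies on the plus strand at chr4:126024550-126044440. No other annotated gene overlaps either one. The 3′ untranslated region of transcript Csf3-201 is 672 bases long and holds the pentamer ATTTA 6 times. A stretch of 30 bases at chr11:98702984-98703013 (GENCODE M21, plus strand, read as DNA) is shown because it carries 3 of these pentamers, the core of the instability element, in capitals.
Csf3 AU-rich stretch: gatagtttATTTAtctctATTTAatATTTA

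The 250 bases before the RefSeq start of Csf3r (GRCm38.p6, plus strand, chr4:126024409-126024658) are shown because PU.1 and C/EBP factors are known to drive the human receptor's promoter, and levels of Spi1 (PU.1) and of C/EBP genes are given with the receptor's. The capitals mark GAGGAA, the core that PU.1 binds, 86 bases before the start, and GCAAT, the core of a C/EBP site, 9 bases before it. Each was found once when both strands were searched, and the motifs do not overlap. Of 32851 promoter windows of the same length, 23.3% hold GAGGAA and 23.1% hold GCAAT, so neither match is rare. RefSeq starts the gene 109 bases after the GENCODE start given above, so the last 109 bases of the window, with both motifs, lie inside the GENCODE gene.
Csf3r promoter: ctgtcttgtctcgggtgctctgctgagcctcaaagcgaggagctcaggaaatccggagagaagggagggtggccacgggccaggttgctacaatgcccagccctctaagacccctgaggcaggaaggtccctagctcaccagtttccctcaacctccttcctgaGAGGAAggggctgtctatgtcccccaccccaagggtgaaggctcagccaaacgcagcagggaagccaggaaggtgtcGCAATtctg

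Of 2704 and 2266 barcodes in replicates 1 and 2, 1740 and 1446 had at least 200 genes and at most 15% mitochondrial UMIs (unique molecular identifiers, each counted as 1 RNA molecule) and were kept. Their median depth was 32091 and 35769 UMIs. Kept cells were assigned by gates on single genes: at least 1000 CPM (UMIs of a gene per 1000000 UMIs of the cell or sum) of Nras for tumour cells, 5 UMIs of C1qa for macrophages and microglia, 1 UMI of Ly6c2 with 5 of Lyz2 for monocytes, and 10 UMIs of S100a8 and S100a9 for neutrophils. At least 1 UMI of Mcpt8, Ccr7 or Cd3e set the basophil, dendritic cell (DC) and T cell gates. The tumour gate held 1981 cells, the C1qa gate 498, the basophil gate 282, the DC gate 121, the monocyte gate 105, the T gate 69 and the neutrophil gate 50. In all, 237 kept cells met several gates and 331 met none, and 9 kept barcodes occurred in both libraries.

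The gates were checked in cells that met 1 gate only, with marker lists that include the gates' own genes. Tumour-gate cells held all 4 tumour markers at a mean above 10 CPM, among them Nes, which encodes a neural progenitor filament, at 108 and 111 CPM. Neutrophil-gate cells held all 7 neutrophil markers above 10 CPM, including Retnlg at 3615 and 4806 CPM and the chemokine receptor gene Cxcr2 at 1428 and 1460 CPM. In these shallow sums 1 UMI is enough to pass 10 CPM. Ngp passed with 0 and 1 UMI (mean 13.3 CPM), and both astrocyte markers, Aqp4 and Gfap, passed too. Passing this threshold is therefore weak evidence of identity in this gate. All 8 microglia and macrophage markers were above 10 CPM in the C1qa gate, and all 5 monocyte markers in the monocyte gate. The basophil gate, which rests on a single Mcpt8 UMI, was the least clean: 134 of its 282 cells also met the tumour gate.

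Most Csf3 RNA was counted in the tumour gate, which also held most of all RNA. There it gave 478 UMIs in replicate 1 and 373 in replicate 2, or 9.06 CPM (95% Poisson interval 8.27 to 9.91) and 7.44 CPM (6.70 to 8.23), a mean of 8.25 ± 1.15 CPM (SD, n = 2). These 851 UMIs are 96.8% of the 879 in all kept cells, and the tumour gate held 87.7% of all UMIs of kept cells. Intervals given here cover counting error only. Cells that met only the tumour gate gave 8.40 ± 1.22 CPM (SD, n = 2).

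Csf3 was at 0 UMIs in the neutrophil, monocyte and T gates of both libraries. The DC gate held 6 in replicate 1 and none in replicate 2, and none of the 6 was in a cell that met the DC gate alone. The C1qa gate held 4 Csf3 UMIs in 2 cells of replicate 1, and no Csf3 UMI was left in its 441 cells that met no other gate. A count of 0 in those 441 cells allows up to 0.688 CPM (3 counts over the group), so Csf3 was at least 12.2-fold lower there than in the tumour-only cells. In the 31 neutrophil-only cells a count of 0 allows up to 42.5 CPM, which is above the tumour level, so a difference was not detectable at this depth. The corresponding limits were 4.95 CPM for 64 monocytes, 5.50 CPM for 76 DC-gate cells and 9.43 CPM for 52 T-gate cells.

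Among cells of the basophil gate, Csf3 gave 34 and 37 UMIs as the gate is written, 7.08 CPM over both libraries, in 32 cells. Of these 71 UMIs, 5 in 3 cells were in basophil-gate cells that met no other gate. Over both libraries this is 6.07 CPM (95% Poisson interval 1.97 to 14.2), an interval that holds the tumour level, so a difference from tumour cells was not detectable at this depth. Outside the tumour gate altogether, 14 kept cells held 28 Csf3 UMIs, 12 of the cells in replicate 1. Their Nras level was at least 622 CPM, with a median of 903 CPM, and their median depth was 45866 UMIs, so they lay just under the Nras threshold and were about as deep as tumour-gate cells, whose median was 44650 UMIs. Of the 14 cells, 11 met no gate and none was in the C1qa or DC gate. The other 3 were the basophil-gate cells with Csf3 that met no other gate, so these too held Nras at 622 CPM or more. Whether their Csf3 is that of basophils was not tested.

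**Figure D1:**
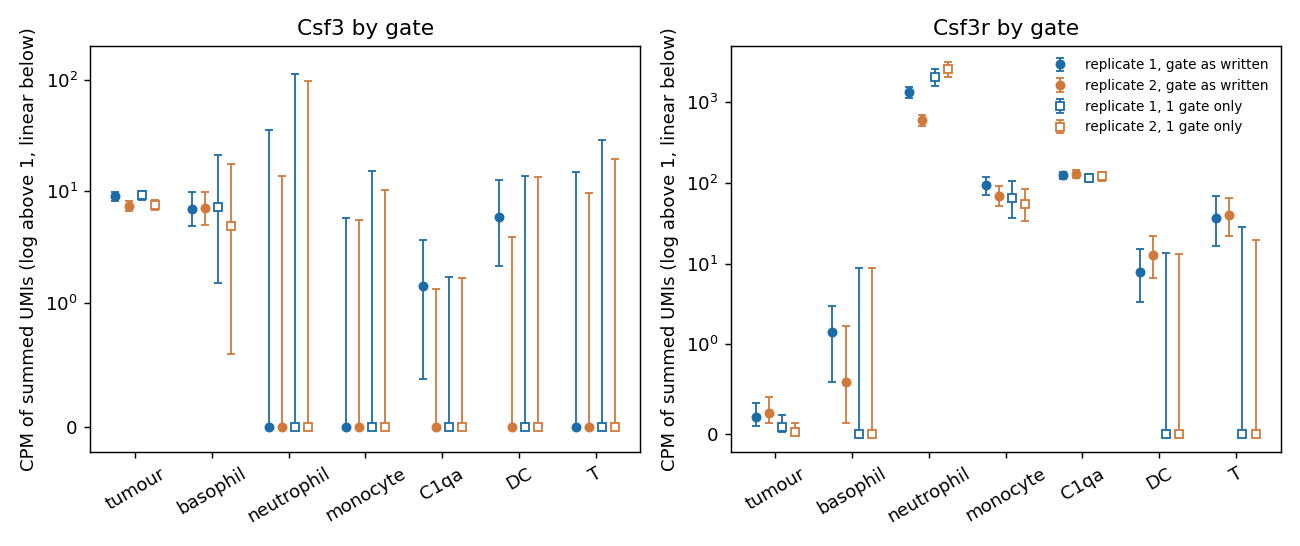
Csf3 (left) and Csf3r (right) in each gate, as CPM of summed UMIs on an axis that is linear below 1 and logarithmic above; filled circles are gates as written, open squares cells that met 1 gate only, colours the 2 libraries, and bars 95% Poisson intervals of the counts. Csf3 stands at 7.44 and 9.06 CPM in the tumour gate, and Csf3r stands highest in the neutrophil gate in both libraries.

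Csf3 was unevenly spread over tumour cells. At least 1 UMI was found in 180 of 1080 tumour-gate cells in replicate 1 (16.7%, exact binomial 95% interval 14.5% to 19.0%) and in 135 of 901 in replicate 2 (14.98%, 12.7% to 17.5%). Of these 315 cells, 186 held 1 UMI, 53 held 2, 76 held 3 or more, and 14 held 10 or more. The 76 cells with 3 or more UMIs, 40 in replicate 1 and 36 in replicate 2, carried 65.7% of all Csf3 UMIs of the gate, and the 14 cells with 10 or more carried 32.9%. The shares were close in the libraries, at 64.6% and 67.0% for 3 or more UMIs.

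The burst size, taken here as the number of Csf3 UMIs in a positive cell, averaged 2.66 in replicate 1 and 2.76 in replicate 2 with a median of 1 in each. The fullest cell held 53 Csf3 UMIs among 46785 in replicate 1 and 33 among 54552 in replicate 2, which is 1133 and 605 CPM within those cells. The 14 cells with 10 or more Csf3 UMIs ranged from 30452 to 145264 UMIs in depth. All of them met the tumour gate alone, none was called a doublet by scrublet, and none held a Csf3r UMI.

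The variance of Csf3 UMIs over tumour-gate cells divided by their mean (the Fano factor, 1 for counts scattered at random at equal depth) was 12.3 in replicate 1 and 8.37 in replicate 2. Without the fullest cell of each library it was 7.27 and 6.05, and after each cell had been thinned to 10000 UMIs it was 2.54 and 2.04. Of 3389 genes whose mean UMI count lay within 2-fold of that of Csf3, 38 (1.12%) had a higher Fano factor. The median of these genes was 1.33. Genes above Csf3 included hemoglobin, complement and MHC class II genes such as Hbb-bt, C1qa and H2-Aa, which are known from red and myeloid cells. Genes of other kinds also lay above Csf3, among them the cytokine gene Csf2, H19, Mgp and Mmp13.

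Detection went with depth. In 4 groups of equal size of tumour-gate cells by UMI count, the share with a Csf3 UMI went from 6.30% in the shallowest to 28.5% in the deepest of replicate 1, and from 3.54% to 27.1% in replicate 2. The level did not follow one order in both libraries: it was 4.62, 3.89, 17.9 and 7.37 CPM from the shallowest to the deepest group in replicate 1 and 4.47, 7.60, 8.18 and 7.69 CPM in replicate 2. The third group of replicate 1 contains the cell with 53 UMIs. Thinned to 10000 UMIs, 96 of 1915 tumour-gate cells (5.01%) held a Csf3 UMI, against 0 of 188 cells of the C1qa gate alone (upper 95% limit 1.94%) taken as background. Unthinned, 0 of the 441 cells of the C1qa gate alone held one, at a median depth of 8825 UMIs.

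**Figure D2:**
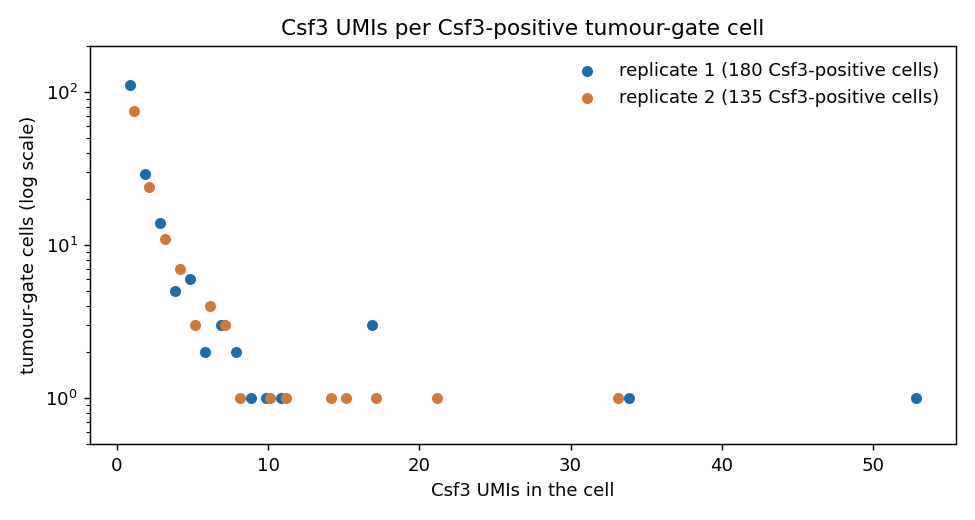
Number of tumour-gate cells (log scale) by the Csf3 UMIs they held, for cells with at least 1; colours are the 2 libraries. Most positive cells held 1 or 2 UMIs, and single cells reached 53 in replicate 1 and 33 in replicate 2.

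Other ligands of the colony-stimulating factor and gp130 cytokine families were measured in cells of the tumour gate alone. Kitl (stem cell factor) stood at 34.3 ± 2.59 CPM, Csf1 (macrophage colony-stimulating factor) at 29.01 ± 0.96 CPM and Il34, a second ligand of the Csf1 receptor, at 12.1 ± 0.40 CPM (SD, n = 2). Of the gp130 ligands, Il11 stood at 35.3 ± 2.19 CPM, Clcf1 at 19.8 ± 1.76 CPM and Lif at 12.1 ± 1.81 CPM. Csf2, which encodes GM-CSF, stood at 4.47 ± 0.59 CPM and Il6 at 0.13 ± 0.09 CPM. The counts are not scaled to RNA length, so levels are not ranked between genes.

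Tumour-gate cells of at least 10000 UMIs were then grouped by their Csf3 UMIs: 1600 cells with none, 239 with 1 or 2, and 76 with 3 or more. UMIs were summed per library and class and compared with edgeR's quasi-likelihood test with the library as a block. A gene was called at a Benjamini-Hochberg adjusted p under 0.05 and a difference of at least 2-fold. Between cells with 3 or more Csf3 UMIs and cells with none, 44 of 11316 genes were called (0.389%), 34 of them higher (0.3%) and 10 lower (0.0884%), and 1366 had an unadjusted p under 0.05. The cells with 3 or more UMIs were deeper, with medians of 50947 and 71723 UMIs against 40484 and 46420, and the part of depth in the differences was not tested. They were alike in mitochondrial share (medians of 3.18% and 3.32% against 3.47% and 3.64%) and in Nras (medians of 2448 and 2854 against 2314 and 2509 CPM).

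The lowest adjusted p belonged to Nfkbia, the NF-kB inhibitor that NF-kB itself induces. Its level was 119 and 116 CPM in cells without Csf3, 161 and 163 CPM at 1 to 2 UMIs, and 290 and 230 CPM at 3 or more, in replicates 1 and 2. The classes were in the same order in both libraries and did not overlap. The rise from none to 3 or more was 1.17 ± 0.08 (log2, SE; edgeR adjusted p = 3.35e-05).

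Of the 25 listed NF-kB targets and inflammatory ligands, 16 could be tested, and 3 rose and none fell (median log2 difference 0.68, against 0.00 over all genes tested). Over all genes 0.3% were called higher and 0.0884% lower. Besides Nfkbia the genes that rose were Ccl2 and Ptges. Ccl2, a monocyte-attracting chemokine, stood at 30.4 and 33.5 CPM without Csf3 and at 219 and 82.5 CPM with 3 or more Csf3 UMIs, a log2 difference of 2.17 ± 0.24 (edgeR adjusted p = 0.00139). A UMI of Ccl2 was found in 33 of the 76 cells and in 298 of the 1600 without Csf3. Ptges, the prostaglandin E synthase, went from 40.1 and 36.5 CPM to 104 and 55.0 CPM, a log2 difference of 1.05 ± 0.15 (edgeR adjusted p = 0.00588). Zc3h12a, whose product Regnase-1 degrades cytokine RNA, had an edgeR adjusted p of 0.0372 and a log2 difference of 0.82 ± 0.17, short of 2-fold. The early response gene Ier3, outside the list and named for its correlation with Csf3, stopped just short of the fold threshold too, at 0.97 ± 0.08.

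Among the cytokine ligands, 2 of 9 tested rose and none fell (median log2 difference 0.44), where 0.3% of all genes were called higher and 0.0884% lower. Il11, a gp130 cytokine, went from 31.7 and 31.7 CPM to 69.6 and 60.1 CPM, a log2 difference of 1.05 ± 0.19 (edgeR adjusted p = 0.0246). Csf2 went from 4.25 and 2.99 CPM to 7.55 and 23.1 CPM, a log2 difference of 2.12 ± 0.43 (edgeR adjusted p = 0.0363). Its rise leaned on few cells: 13 of the 76 held a Csf2 UMI and 1 cell held 42 of their 91 UMIs. Lif reached a log2 difference of 0.89 ± 0.15 at an edgeR adjusted p of 0.0166, short of 2-fold, and Kitl stood at -0.27 ± 0.12 and did not pass.

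Of the granulocyte transcription factors, 1 of 6 tested rose. This was Cebpd, which encodes the inflammation-induced factor C/EBP delta, from 23.1 and 24.8 CPM to 70.1 and 39.8 CPM (log2 difference 1.19 ± 0.17, edgeR adjusted p = 0.00487). Bcl3, an NF-kB cofactor outside the lists, rose by 1.09 ± 0.16 on the log2 scale (edgeR adjusted p = 0.00581). None of the 10 tested receptors of IL-17, IL-1 and TNF with their adaptors was called, nor any of 10 cytokine receptors, 18 G-CSF receptor signalling genes, 19 MAPK and AP-1 targets, 11 regulators of histone methylation and RNA decay, or 10 cell cycle genes. Neither of the 2 neutrophil granule and trafficking genes that could be tested was called. Only 0.389% of all 11316 genes were called in this comparison, so the lack of a call in lists this short is not a result about them. The share of cells with a UMI of Mki67, a proliferation marker, was 53.9% with 3 or more Csf3 UMIs and 49.4% without.

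The 8 called genes of largest rise with the same direction in both libraries were Hbb-bt, Nos2, Pou2f2, Aqp8, Ido1, Speer4e, Stmn2 and Prl6a1, and most were rare RNAs. Of 1090 Hbb-bt UMIs in the 76 cells, 1 cell held 1081, and without it the level was 1.64 CPM against 3.81 CPM in cells without Csf3. Pou2f2, a lymphoid transcription factor gene, was spread over 17 of the 76 cells and 43 of the 1600, with levels of 13.4 and 4.43 CPM against 0.88 and 0.60 CPM. Nos2, the inducible nitric oxide synthase, was found in 4 of the 76 cells and 7 of the 1600. Over all 34 rises, 1 cell held more than 50% of the UMIs for 6 genes, and for 20 the pooled difference fell under 1 (log2) when the gene's fullest cell was left out; Nfkbia, at 0.98, and Il11, at 0.86, are among the 20.

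The 4 largest falls were in Tceal8, Mgp, H19 and Islr. H19, an imprinted noncoding RNA, stood at 16.4 and 19.0 CPM in cells without Csf3, 6.50 and 4.53 CPM at 1 to 2 UMIs and 0.84 and 0.63 CPM at 3 or more. Its fall by 4.57 on the log2 scale (SE 0.41, edgeR adjusted p = 0.00021) rests on 138 of 1600 cells against 4 of 76 with a UMI. Tceal8 had no UMI in the 76 cells, which makes it at least 8.13-fold lower there (3 counts over both libraries) than the 4.40 CPM of cells without Csf3. Mgp, which encodes matrix Gla protein, held 1 UMI in the 76 cells, and Islr held 3.

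**Figure D3:**
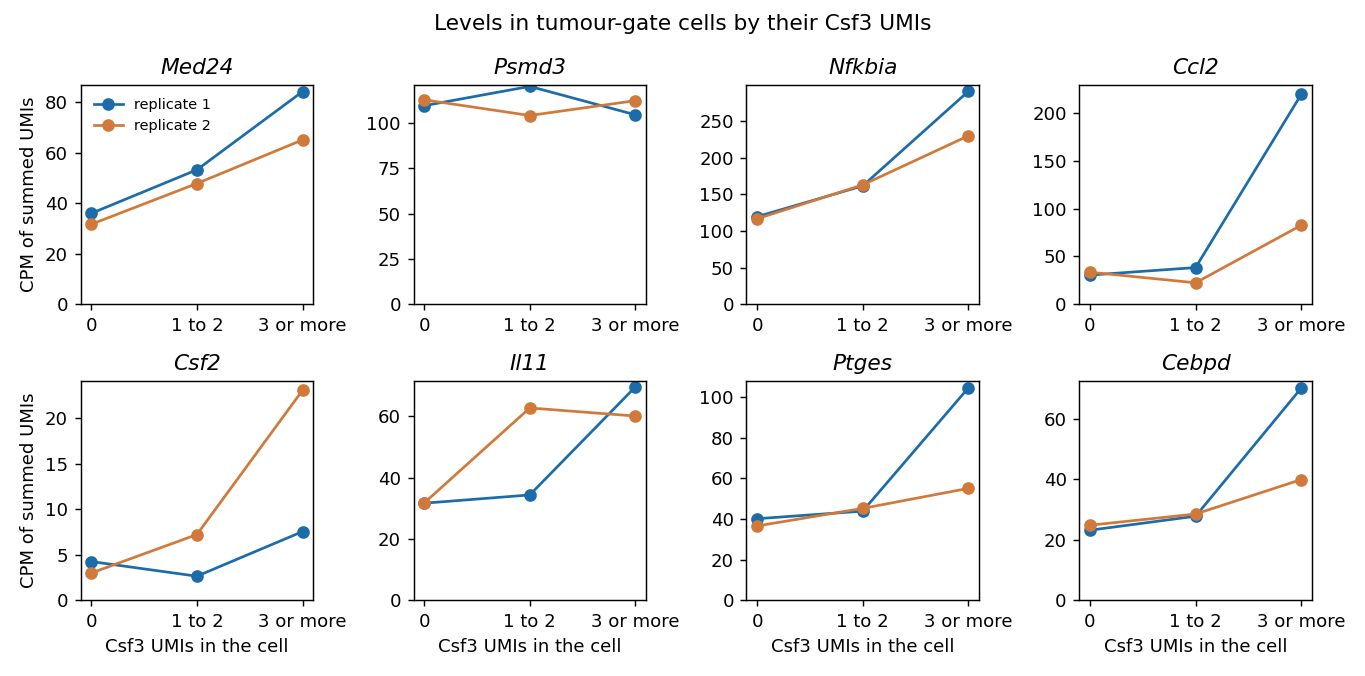
Level (CPM of summed UMIs, axes from 0) of 8 genes in tumour-gate cells with 0, with 1 to 2 and with 3 or more Csf3 UMIs; lines join the classes of 1 library. Med24 and Nfkbia stood higher at each step in both libraries, Psmd3 stayed between 104 and 120 CPM, and the rises of Ccl2, Csf2, Ptges and Cebpd differed in size between the libraries.

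Med24, a Mediator subunit gene that lies next to Csf3, had the highest correlation with it over cells. It stood at 36.0 and 31.7 CPM in cells without Csf3, 53.3 and 47.9 CPM at 1 to 2 UMIs and 84.3 and 65.1 CPM at 3 or more. The classes were in this order in both libraries. The log2 difference was 1.17 ± 0.09 at 3 or more (edgeR adjusted p = 9.83e-05) and 0.59 ± 0.07 at 1 to 2 UMIs (edgeR adjusted p = 0.00864), a comparison in which 7 of 11316 genes (0.0619%) were called, 1 higher (0.00884%) and 6 lower (0.053%), and Med24 fell short of 2-fold. A Med24 UMI was found in 72 of the 76 cells and 1094 of the 1600, and no cell held more than 4.42% of its UMIs, so the rise did not rest on 1 cell.

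Med24 is on the minus strand at chr11:98704591-98729435, so its 3′ end faces that of Csf3 across 961 bases. Psmd3, a proteasome subunit gene on the plus strand at chr11:98682554-98695979, ends 5283 bases before Csf3. Psmd3 stood at 109 and 113 CPM without Csf3 and at 104 and 112 CPM with 3 or more UMIs, a log2 difference of 0.01 ± 0.09 (edgeR adjusted p = 0.981). Whether strand was used in counting is not given in the sources used here, and reads that run from one gene's end into the other's were not tested.

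Over single tumour-gate cells of at least 10000 UMIs, Pearson's r of Csf3 with 10186 genes was computed on log2 of counts per 10000 plus 1, within each library. These values are a description over 1046 and 869 cells that share a library, and most are weak because Csf3 is at 0 in most cells. Med24 had the highest mean r, 0.21 (0.22 and 0.21), followed by Nfkbia at 0.18 (0.21 and 0.16). Ier3 (0.20 and 0.14), Bcl3 (0.14 and 0.13) and Pcdh7 (0.11 and 0.14) were also of similar size in both libraries. The other 5 of the 10 highest were lower in replicate 2: Tnip3 (0.27 and 0.08) and Tnip1 (0.20 and 0.07), which encode partners of the NF-kB brake A20, Ptges (0.23 and 0.08), Ccl2 (0.19 and 0.06) and Cebpd (0.18 and 0.06). The lowest were Ddx10 (-0.09), Rrp12 (-0.09) and Qk (-0.09). In replicate 1 alone, 8 of the 10 highest were again among the 10 highest, and in replicate 2 alone 4. With every cell thinned to 10000 UMIs, r was 0.07 for Med24, the 43rd highest, 0.13 for Nfkbia and 0.12 for Ier3, and 3 of the 10 remained among the 10 highest. The r of Csf3 with depth was 0.06 and 0.07.

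The 27 measured genes within 1 Mb of Csf3 were listed after the value for Med24 had been seen. The other 26 had a median r of 0.01 and a highest mean r of 0.07, that of Nr1d1, a clock repressor gene, at 0.07 in both libraries. Psmd3 stood at 0.03, and the median over all genes was -0.01. With cells thinned to 10000 UMIs, Med24 stood at 0.0743 and Nr1d1 at 0.0716, so at equal depth the values of these 2 genes lay close together.

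**Figure D4:**
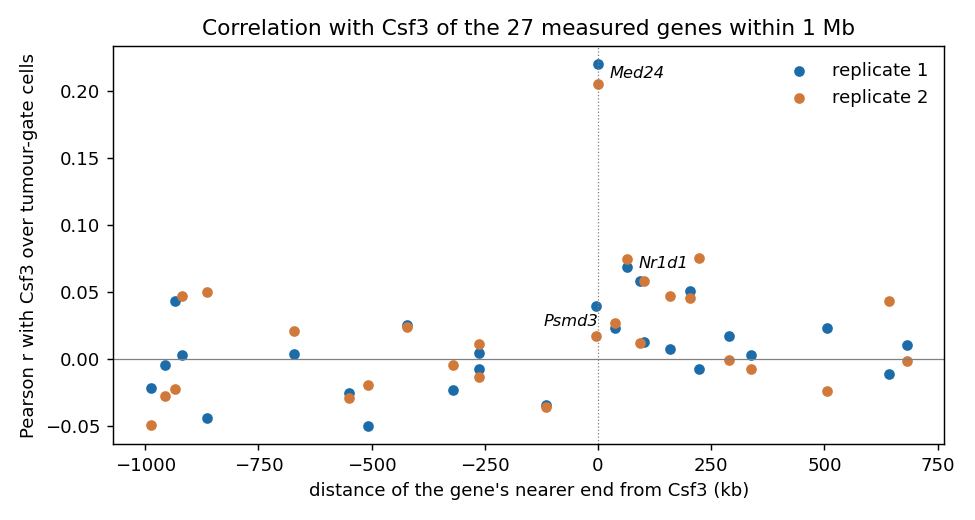
Pearson r with Csf3 over tumour-gate cells for the 27 measured genes within 1 Mb, by distance in kb of the gene's nearer end from Csf3; colours are the 2 libraries. Cells are not thinned here: Med24 is at 0.22 and 0.21 and the next highest mean is that of Nr1d1, at 0.0717, while at equal depth Med24 is at 0.0743 and Nr1d1 at 0.0716.

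Csf3r followed another map than its ligand, with its highest level in neutrophil-gate cells. In cells that met the neutrophil gate alone it stood at 2035 CPM (67 UMIs in 15 cells) in replicate 1 and 2576 CPM (97 UMIs in 16 cells) in replicate 2, a mean of 2305 ± 382 CPM (SD, n = 2). In the gate as written it was 1330 and 598 CPM, because the 19 cells that met another gate as well were deeper and stood at 1006 and 274 CPM. The median depth was 2074 UMIs for neutrophil-only cells, and 12 of the 15 and 15 of the 16 held a Csf3r UMI, with up to 10 in a cell.

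In the monocyte gate Csf3r stood at 93.6 and 69.9 CPM as written and at 65.4 and 55.3 CPM in cells of that gate alone. The C1qa gate gave 124 and 129 CPM as written and 115 and 121 CPM in cells of that gate alone. These levels were in the order neutrophil, C1qa, monocyte in both libraries and for both ways of counting cells. Tumour-gate cells were near 0, at 0.19 and 0.24 CPM with 22 UMIs in 12 of 1981 cells, and 5 of these UMIs were in cells of the tumour gate alone. Csf3r was at 0 in the 138 basophil, 76 DC and 52 T cells that met 1 gate, which is at least 638-fold, 422-fold and 246-fold below the neutrophil level (3 counts over the group). As the gates are written these stood at 1.01, 10.3 and 38.0 CPM, so their Csf3r UMIs lay wholly in cells that met another gate too.

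Thinned to 1000 UMIs, 26 of 30 neutrophil-only cells (86.7%) held a Csf3r UMI, against 45 of 437 C1qa-only cells (10.3%), 2 of 64 monocyte-only cells (3.13%) and 0 of 1804 tumour-only cells. Before thinning the shares were 57.4% for C1qa-only and 40.6% for monocyte-only cells, at median depths of 8825 and 9163 UMIs. The tumour gate serves as the class that should lack the receptor, and its unthinned share was 0.61% at a median of 44650 UMIs.

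In sums per library and gate of cells that met 1 gate, Csf3r was 5.01 ± 0.27 (log2, SE) higher in neutrophils than in monocytes (edgeR adjusted p = 8.74e-13). In this comparison 15.5% of 7054 genes were called, 5.17% higher and 10.3% lower, and the median gene stood at -1.09. Against the C1qa gate, taken as the mean of its 3 Cx3cr1 classes on the log scale, Csf3r was 4.62 ± 0.23 higher (edgeR adjusted p = 2.92e-14), where 21.2% of genes were called, 8.38% higher and 12.8% lower, and the median was -1.26. With cells counted in every gate they met, the differences were 3.38 and 2.81 and both were still called. Monocytes and C1qa cells differed by -0.38 ± 0.34 (edgeR adjusted p = 0.474, with 10.7% of genes called higher and 8.97% lower, 19.7% in all), and with 1 library alone by 0.06 in replicate 1 and -0.73 in replicate 2. This contrast gives the few Cx3cr1-free cells, with 8 Csf3r UMIs, the same weight as each of the other classes. With the C1qa gate as 1 sum per library, an alternative chosen after seeing the data, the monocyte difference was -1.12 ± 0.26 (edgeR adjusted p = 0.0022) and the neutrophil difference 3.89 ± 0.20, so the call between monocytes and C1qa cells depends on that weight. The 7 neutrophil markers summed to 2.30 and 2.29 CPM in C1qa-only cells, where Cxcr2, Ly6g and Ngp were at 0. They summed to 65.4 and 41.5 CPM in monocyte-only cells, where 5 of the 7 were at 0. S100a8 and S100a9, which set the neutrophil gate, are among the 7. These sums are therefore held low in part by leaving out cells that met that gate.

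The receptor's signalling chain was measured in the same cells. Of 19 signalling genes tested, 4 rose and 1 fell in neutrophils against monocytes (median log2 difference 0.65), and 7 rose and none fell against the C1qa gate (1.38), against the medians over all genes of -1.09 and -1.26. Over all genes tested, 5.17% were called higher and 10.3% lower against monocytes, and 8.38% and 12.8% against the C1qa gate. Members of other lists rose too. Of 22 NF-kB targets, 8 rose and 1 fell against monocytes and 10 rose and 4 fell against the C1qa gate. Of 6 receptors of IL-17, IL-1 and TNF with their adaptors 1 and 4 rose, of 10 regulators of histone methylation and RNA decay 3 and 3, and of 18 MAPK and AP-1 targets 3 rose, and 5 rose and 1 fell. Socs3, the feedback inhibitor of the receptor, stood at 2209 ± 871 CPM in neutrophils, 460 ± 60.8 CPM in monocytes and 348 ± 33.6 CPM in C1qa cells (SD, n = 2), and it rose in both comparisons. Pim1, a kinase gene that STAT5 induces, stood at 1165 ± 230 CPM, 405 ± 116 CPM and 132 ± 8.02 CPM and also rose in both, as did the kinase genes Jak1 and Syk. Stat3 stood at 338 ± 48.1, 134 ± 18.1 and 101 ± 0.97 CPM and rose against the C1qa gate but did not pass against monocytes. Socs1 was the gene that fell against monocytes, at 55.0 ± 34.8 CPM in neutrophils and 254 ± 52.0 CPM in monocytes.

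Of 11 related cytokine receptors tested, none rose and 2 fell in neutrophils against monocytes, where 5.17% of all genes were called higher and 10.3% lower. Against the C1qa gate 1 rose and 2 fell, where 8.38% and 12.8% were called. The 1 that rose was Csf2rb, the beta chain shared by the GM-CSF, IL-3 and IL-5 receptors, at 831 ± 199 CPM in neutrophils, 350 ± 25.7 CPM in monocytes and 170 ± 8.64 CPM in C1qa cells (log2 difference 2.15, and 0.96 against monocytes, edgeR adjusted p = 0.0205, short of 2-fold). Csf1r, the macrophage colony-stimulating factor receptor, ran the other way, at 110 ± 69.7, 356 ± 104 and 1293 ± 72.2 CPM, and fell in both comparisons. The other falls were Il3ra against monocytes and Il11ra1 against the C1qa gate, both at 0 UMIs in neutrophils, where a count of 0 allows up to 42.5 CPM.

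Of 7 granulocyte transcription factors tested, 2 rose (Cebpd and Klf5) and 2 fell (Cebpa and Irf8) against monocytes, where 5.17% of all genes were called higher and 10.3% lower. Against the C1qa gate 4 rose (Cebpb, Cebpd, Klf5 and Spi1) and the same 2 fell, where 8.38% and 12.8% were called. Cebpd stood at 1123 ± 514 CPM in neutrophils, 186 ± 26.1 CPM in monocytes and 134 ± 12.7 CPM in C1qa cells. Cebpa, whose product starts the granulocyte programme in progenitors, had no UMI in neutrophils, which makes it at least 2.44-fold lower than in monocytes and at least 3.44-fold lower than in C1qa cells (3 counts over the group). Klf5 had 5 UMIs in neutrophils and none in the other 2 classes. Spi1, which encodes PU.1, stood at 1250 ± 222 CPM in neutrophils, 694 ± 3.89 CPM in monocytes and 484 ± 45.3 CPM in C1qa cells, and Cebpb at 3558 ± 639, 1886 ± 44.6 and 668 ± 68.9 CPM, and neither passed against monocytes (edgeR adjusted p = 0.173 and 0.0678). Irf8, which favours monocytes over granulocytes, stood at 15.2 ± 21.5, 297 ± 1.94 and 591 ± 10.6 CPM and fell in both comparisons. Of the ligands made by neutrophils, Osm, a gp130 cytokine, stood at 721 ± 569 CPM (37 and 12 UMIs). Csf1 stood at 140 ± 26.7 CPM but on only 4 and 6 UMIs. Osm and Csf1 were the 2 of 5 tested ligands that rose in each comparison.

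Within the 31 neutrophil-only cells, several listed granule genes were at or near 0. Elane, Mpo, Ctsg and Camp had no UMI, and Prtn3, Ltf and Ngp were in 1 cell each. Other granule genes of the same list were present, Lcn2 in 15 cells and Mmp8 in 6. Mature genes were present, with Mmp9, a gelatinase of late granules, in 18 cells and Cxcr2 in 24. The Csf3r level over the 18 cells with an Mmp9 UMI was 2780 CPM (95% Poisson interval 2312 to 3314) against 1540 CPM (1100 to 2097) in the 13 without. For Cxcr4, which marks aged neutrophils, it was 2854 CPM (2207 to 3631) with and 2065 CPM (1677 to 2517) without, and these intervals overlap. Cells with an Mmp9 UMI were deeper, at a median of 2387 against 1606 UMIs, and no test over libraries was made of these splits.

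C1qa-gate cells were divided by Cx3cr1, the fractalkine receptor gene that is high in microglia, into cells with no Cx3cr1 UMI and cells below or at and above the median of the positive cells, 1173 CPM. In cells of that gate alone, Csf3r stood at 14.6 and 46.7 CPM without Cx3cr1 (2 and 6 UMIs in 37 and 31 cells), 88.4 and 110 CPM at low Cx3cr1 (95 and 97 UMIs) and 160 and 138 CPM at high Cx3cr1 (154 and 162 UMIs). The means were 30.6 ± 22.7, 99.2 ± 15.2 and 149 ± 15.5 CPM (SD, n = 2). The classes were in this order in both libraries and did not overlap.

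High against no Cx3cr1 gave a log2 difference in Csf3r of 2.26 ± 0.46 (edgeR adjusted p = 0.00175), where 7.97% of 7054 genes were called, 4.17% higher and 3.8% lower. Low against no Cx3cr1 gave 1.80 ± 0.49 (edgeR adjusted p = 0.0386, with 1.36% of genes called higher and 1.67% lower, 3.03% in all). High against low gave 0.46 ± 0.18 (edgeR adjusted p = 0.207, with 0.269% of genes called higher and 0.638% lower, 0.907% in all), so a step between the 2 positive classes was not shown. With 1 library alone, high against none was 1.54 in replicate 2 and 3.51 in replicate 1, with no test.

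The contrast with the Cx3cr1-free cells depended on which cells were counted. In the gate as written they stood at 125 and 98.3 CPM, and 33 of their 41 Csf3r UMIs lay in 9 cells that met another gate too. With cells counted in each gate they met, high against none was 0.55 ± 0.40 (edgeR adjusted p = 0.497) and no longer called. High Cx3cr1 as written was 177 and 153 CPM, above low Cx3cr1 at 87.3 and 106 CPM in both libraries.

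Nuclear RNA moved with the same classes. No Malat1 UMI was found in 82.4% of the Cx3cr1-free, 35.8% of the low and 2.06% of the high Cx3cr1 cells, and the Cx3cr1-free cells were shallow, with a median of 2733 UMIs against 10061 and 9740. In cells with a Malat1 UMI, Csf3r stood at 73.8 ± 31.0 CPM without Cx3cr1 (5 UMIs in 12 cells), 124 ± 36.2 CPM at low and 150 ± 15.8 CPM at high Cx3cr1, so the levels of the classes lay closer together than in all cells. The fitted high against none difference was 1.95 (edgeR adjusted p = 0.0300), larger than these levels give, because TMM scaled the 2 small Cx3cr1-free sums by 1.51 and 1.77 and the high sums by 0.88 and 0.86. In cells without one it was 15.4 ± 21.8 CPM and 33.5 ± 9.91 CPM in the first 2 classes. Thinned to 3000 UMIs, a Csf3r UMI was found in 2 of 32, 35 of 169 and 64 of 186 cells (6.25%, 20.7% and 34.4%). The part of RNA quality in the Csf3r difference beyond these values was not tested.

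**Figure D5:**
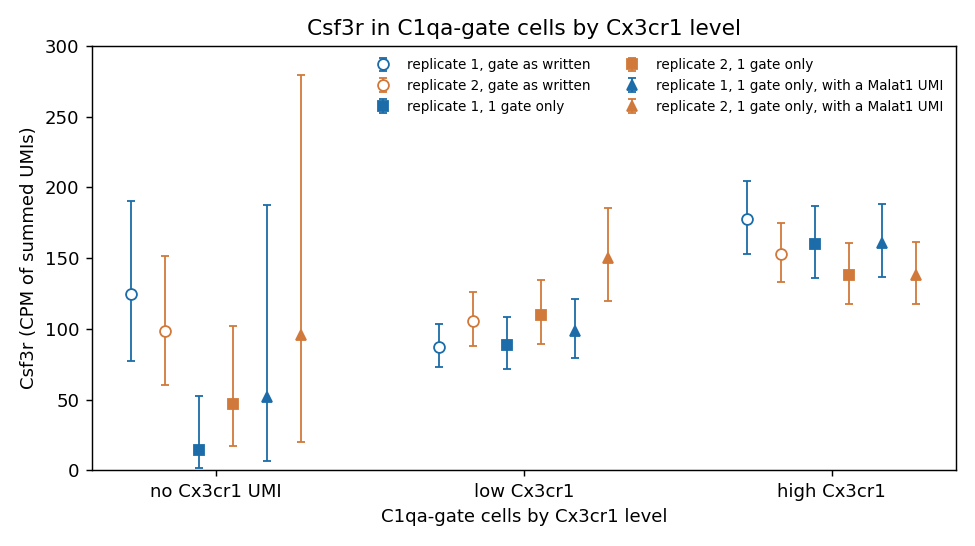
Csf3r in C1qa-gate cells (CPM of summed UMIs, axis from 0) by Cx3cr1 class; open circles are the gate as written, squares cells that met no other gate, triangles those of them with a Malat1 UMI, colours the 2 libraries, and bars 95% Poisson intervals. High Cx3cr1 cells stand at 138 to 177 CPM in every version, while the cells with no Cx3cr1 UMI range from 14.6 to 125 CPM with the cells counted.

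Other receptor genes rose with Cx3cr1 in the same comparison. Of 11 cytokine receptors tested, 2 rose and none fell between no and high Cx3cr1. Csf1r rose by 1.34 and Il6ra, which encodes the IL-6 receptor, by 4.44 on the log2 scale. Il6ra had only 0 and 1 UMI in the Cx3cr1-free cells, against 75 and 107 at high Cx3cr1, so the size of its rise is uncertain. Among 22 NF-kB targets 3 rose, Cxcl10, Icam1 and Nfkbiz, and 2 fell, Ptgs2 and Tnfaip2, and Pim1 was the 1 of 19 signalling genes called, with a fall by 2.34 on the log2 scale. Over all genes tested, 4.17% were called higher and 3.8% lower in this comparison. The 1 call among 19 is near that share and is not a result about the signalling list. The same libraries and cells give all these values, so they share the difference in Malat1 and depth.

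Over the 18 sums of library and class, the genes most like Csf3r by Pearson's r of log2(CPM + 1) among 12757 genes were Picalm (0.96), Cd33 (0.96), 1600010M07Rik (0.96), Mtus1 (0.95) and Rnf149 (0.95). Picalm encodes an endocytic adaptor and Cd33 a myeloid sialic acid receptor. Over the 441 cells of the C1qa gate alone, the highest mean r with Csf3r belonged to Cx3cr1 (0.49), Malat1 (0.48), Xist (0.48), Mef2c (0.43) and Rsrp1 (0.42), and the lowest to Ftl1 (-0.34), Mif (-0.32) and Fth1 (-0.31), the ferritin chains among them. Cx3cr1 was used for the classes above. Depth itself had an r of 0.28 and 0.27 with Csf3r in these cells. Mrps15, a mitochondrial ribosome gene that begins 2484 bases after Csf3r ends, stood at 85.4 ± 8.11 CPM in neutrophils, 72.6 ± 24.5 CPM in monocytes and 85.1 ± 1.24 CPM in C1qa cells (SD, n = 2).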

How the data were processed

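Single-cell RNA was counted in 2 libraries of 1 group. Per the labels, the authors aligned reads to mm10 with STAR within Cell Ranger 3.1 and deposited counts of UMIs per gene and barcode. The labels also name a step that equalises depth between runs; whether the deposited counts passed through it is not given in the sources used here, nor are the annotation, the strand setting or any doublet removal. The members and gene lists were chosen with earlier results of these data known.

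Cells were kept at 200 or more genes and at most 15% mitochondrial UMIs. Levels are CPM of summed UMIs. Scrublet (expected rate 0.04, scanpy 1.11.5) called 11 and 3 barcodes, under 0.5% of cells, and these were kept except in an alternative. Sums per library and class were tested with edgeR 4.0.16 (R 4.3.3; TMM, filterByExpr, glmQLFit, library as block, Benjamini-Hochberg over all genes tested), in cells that met 1 gate only for comparisons of gates. Genes that define the gates, and Cx3cr1, were left out of those comparisons, and Csf3 out of the comparison of its own classes. The p-values measure how a gene's differences between classes vary between the 2 libraries, with 1 estimate of spread shared by all classes of a fit. They do not measure the spread between cells. Blocking follows from classes drawn from the same library. Code was tested on simulated data. Poisson and Clopper-Pearson intervals are at 95%, and a count of 0 is bounded at 3 counts. Correlates needed a UMI in 10% of cells.

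Named genes are the members, genes of the fixed lists that were called or reached 10 CPM in a described class, the 10 highest and 3 lowest correlates of Csf3, the 5 genes most like Csf3r over 18 sums and over C1qa cells, the 8 largest rises and 4 largest falls with 50 or more counts and 1 direction in both libraries, and the neighbours Psmd3, Med24 and Mrps15. The genes with the lowest p, the 3 lowest correlates of Csf3r and the genes within 1 Mb were named after values were seen. Of 31053 gene identifiers, 30934 were found in GENCODE M21 (GRCm38, the assembly of mm10). Promoter windows are from RefSeq.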

Additional observations from a re-analysis of the deposited data

Results flagged for a closer look

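The barcodes left out by the filters still held RNA of both genes. Csf3r had 107 UMIs in 24 of the 1784 barcodes left out, 90 in replicate 1 and 17 in replicate 2, above the limit of 3 counts that a count of 0 allows. All 107 lay in barcodes with more than 15% mitochondrial UMIs, and 77 of them in 11 barcodes that would have met the neutrophil gate, 9 in replicate 1 and 2 in replicate 2. With no limit on mitochondrial UMIs, an alternative chosen after seeing the data, the neutrophil gate held 61 cells and Csf3r stood at 904 CPM, against 964 CPM in the gate as written. Csf3 had 5 UMIs in 3 barcodes left out, all in replicate 2.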

How the results depend on the processing

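Of 104 alternative values over 14 results, 84 kept their direction and side of the threshold or moved by less than the spread between libraries. Csf3r in the neutrophil gate moved from 964 to 2305 CPM in cells that met 1 gate only, in the monocyte gate from 81.7 to 60.4 CPM, and in the C1qa gate from 127 to 118 CPM. The C1qa value was also 131 CPM without called doublets, 99.4 CPM at 2 or more C1qa UMIs and 140 CPM in barcodes with a Malat1 UMI. Thinning to 10000 UMIs lowered the share of tumour cells with a Csf3 UMI from 15.8% to 5.13%, as means of the 2 libraries. The 5.01% given above is a pooled share from a separate random draw. At 1000 UMIs the share, pooled over both libraries, was 0.76%. Thinning to 10000 UMIs also lowered the UMIs per positive cell from 2.71 to 1.49 and the Fano factor from 10.3 to 2.29. Leaving out the fullest cell of each library gave 2.46 and 6.66. Monocytes against C1qa cells turned to 0.0596 without replicate 2, from -0.38, and was -0.73 without replicate 1; with the C1qa gate as 1 sum per library, chosen after seeing the data, it was -1.12 and called. High against no Cx3cr1 was 0.55 with cells counted in each gate. The count of 44 genes was 99 with no filter on low counts (18258 genes tested) and 28 with DESeq2; 1 or more against none called 48, of which 18 were shared. The r of Med24 was 0.23 as Spearman's rho and 0.0743 thinned, and that of Nfkbia 0.13 thinned. Without the replicate block 37 genes were called and no Csf3r call changed. Leaving out a library gave no count of genes, since no residual degrees of freedom remain.

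Leaving out 1 library at a time gave Csf3 at 7.44 to 9.06 CPM. Csf3r was 598 to 1330 CPM in the neutrophil gate, 69.9 to 93.6 CPM in the monocyte gate and 124 to 129 CPM in the C1qa gate. The share with Csf3 was 14.98% to 16.7%, the UMIs per positive cell 2.66 to 2.76 and the Fano factor 8.37 to 12.3. The neutrophil differences were 4.66 to 5.15 and 4.43 to 4.72, and high against no Cx3cr1 1.54 to 3.51. The r of Med24 was 0.21 to 0.22 and of Nfkbia 0.16 to 0.21.

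Depth limits what a 0 can show: in the 31 neutrophil-only cells a count of 0 still allows Csf3 at up to 42.5 CPM.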
